A study of Mus musculus with 8 samples.

Results

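The antiviral interferon-stimulated genes (ISGs) described here are 43 listed mouse genes: transcription factors of the type I interferon response, sensors of foreign nucleic acid, and effectors that block virus replication. They come from a list of gene names that was chosen with earlier results of these data known. Their shares set beside those of all tested genes are therefore a description and not independent support. Of the 43, 41 had a probe set that the array annotation maps to that gene alone, among 18193 such genes on the array, and the brightest such probe set stood for each gene. Ifi44 had no probe set in the annotation used here, and the probe set that names Isg15 also names a second gene, so neither was analysed. Ddx60, Oas3 and Mx2 lay below the filter on dim signals, which left 38 antiviral genes among 11345 tested genes.

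The samples were whole B16F1 melanoma tumours, grown from a mouse melanoma cell line under the skin of the right hind limb of mice aged 8 to 12 weeks, with 5 to 7 C57BL/6 and TNFR KO mice injected. The series asks which genes go with the radiosensitivity of these tumours when the host's own tissue cannot respond to TNF. The 4 groups were irradiated and untreated tumours in hosts lacking both TNF receptors (labelled TNFR1,2 -/-, here TNFR KO, from the line B6;129S-Tnfrsf1a[tm1Imx] Tnfrsf1b[tm1Imx]/J), and irradiated and untreated tumours in wild-type hosts (WT, C57BL/6-NCr). Mice were divided into treatment groups of equal mean volume once tumours measured 268 to 478 mm3, irradiated tumours received 1 dose of 20 Gy of X-rays with the rest of the body shielded, and tumours were excised 5 h later. All 4 groups carried the same implanted cells, whose own TNF receptor genes were not stated to be altered, and the labels give C57BL/6 as the strain of every host although the name of the knockout line denotes a mixed B6;129S background. Receptor loss and that background cannot be told apart. RNA was pooled within each group, and each of the 4 pools was read on 2 Affymetrix mouse expression arrays, so the 2 values of a group are technical duplicates of 1 pool, with no replicate animals.

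Type I interferons bind a receptor pair whose kinases, Jak1 and Tyk2, activate the transcription factor Stat2. A complex that holds Stat2 and Irf9 binds the interferon-stimulated response element (ISRE) in the promoters of antiviral genes, and Irf7, itself such a gene, sustains the production of interferon. Radiation and other DNA damage can start the same programme through sensors of misplaced DNA and RNA, in tumour cells and in the immune cells around them.

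The RefSeq promoter table (build GRCm38.p6, 250 bases before to 50 after the start of each gene) held 33 of the 43 listed genes. The core of the ISRE, here GAAA, any 2 bases and GAAA again, was searched on both strands. It was found in 13 of these 33 genes (39.4%), against 3.99% of all 27025 genes in that table. The GAS motif (TTC, any 3 bases, GAA), an element of promoters that respond to interferon-gamma, was found in 10 of 33 (30.3%) against 9.55% of all genes. It reads the same on both strands, and a match to either motif is a description of the letters and not of a bound site. The 4 promoters below belong to genes whose signal fell in TNFR KO hosts. They are the 3 with the largest host differences among such genes with a match (Ifit1, Ifit3 and Ifih1) and the one with the smallest (Trim21), printed 5′ to 3′ on the gene's strand with the ISRE core in capitals. On the other strand the core reads TTTC, any 2 bases and TTTC. Ifit1 (chr19:34640639-34640938, plus strand) holds it at 104 and 85 bases upstream of its start, counted to the first base of the match, Ifit3 (chr19:34583279-34583578, plus strand) 156 and 122 bases upstream, Ifih1 (chr2:62646206-62646505, minus strand) 32 bases downstream and Trim21 (chr7:102565433-102565732, minus strand) 13 and 19 bases downstream, where the copies overlap.

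Ifit1: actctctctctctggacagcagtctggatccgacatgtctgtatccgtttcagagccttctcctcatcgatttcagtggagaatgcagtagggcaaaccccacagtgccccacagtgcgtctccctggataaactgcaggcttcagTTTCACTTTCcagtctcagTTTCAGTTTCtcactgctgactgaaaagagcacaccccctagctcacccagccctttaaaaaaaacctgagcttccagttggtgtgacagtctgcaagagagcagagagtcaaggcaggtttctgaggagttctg
Ifit3: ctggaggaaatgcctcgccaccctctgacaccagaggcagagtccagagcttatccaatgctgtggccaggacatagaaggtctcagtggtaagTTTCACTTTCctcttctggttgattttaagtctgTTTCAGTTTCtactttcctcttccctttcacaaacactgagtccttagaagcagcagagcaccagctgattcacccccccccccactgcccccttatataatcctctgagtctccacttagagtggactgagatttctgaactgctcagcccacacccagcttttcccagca
Ifih1: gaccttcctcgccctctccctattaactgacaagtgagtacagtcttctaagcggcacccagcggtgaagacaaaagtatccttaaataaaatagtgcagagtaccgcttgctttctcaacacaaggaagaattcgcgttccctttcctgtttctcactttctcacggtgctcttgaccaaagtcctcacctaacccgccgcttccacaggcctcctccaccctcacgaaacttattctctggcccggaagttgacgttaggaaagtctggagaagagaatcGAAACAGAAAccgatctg
Trim21: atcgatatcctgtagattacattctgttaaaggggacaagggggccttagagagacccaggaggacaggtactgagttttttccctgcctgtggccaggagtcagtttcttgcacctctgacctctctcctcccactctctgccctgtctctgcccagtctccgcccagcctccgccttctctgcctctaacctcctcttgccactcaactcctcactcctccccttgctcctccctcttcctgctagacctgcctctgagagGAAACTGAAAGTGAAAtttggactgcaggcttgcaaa

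Values are MAS5 signals on a linear scale, given for each of the 2 arrays of a pool, and differences are in log2(signal + 16) each with its limma standard error. The correlation between the 2 arrays of a pool was 0.975 to 0.981. The poly-A spike-in controls, bacterial RNAs added to a sample during target preparation, averaged 12.8 to 20.9 on TNFR KO arrays and 5638 to 10462 on WT arrays, so host and target preparation cannot be told apart. Within the WT host they averaged 10438 in the irradiated and 5685 in the untreated pool, and the probe sets for ribosomal 18S RNA averaged 944 and 529 in the irradiated and untreated TNFR KO pools and 340.0 and 293 in the irradiated and untreated WT pools. The hybridisation controls averaged 5896 and 5262 in the irradiated and untreated TNFR KO pools. In the irradiated and untreated WT pools they averaged 6449.5 and 5073. All 7 melanocyte markers passed the filter, with summed signals of 160800.0 and 161170.0 in irradiated and untreated TNFR KO pools and 174440.0 and 155460.0 in the irradiated and untreated WT pools. The probe set of Tnfrsf1a read 4196 and 3409 in the irradiated and untreated TNFR KO pools, against 3874 and 2702 in the irradiated and untreated WT pools, a difference of 0.22 that did not pass the test (limma adjusted p = 0.314). That of Tnfrsf1b read 128 and 127 in the irradiated and untreated TNFR KO pools, against 416 and 191 in the irradiated and untreated WT pools (log2 difference -1.06, adjusted p = 0.00708). Whether these probe sets lie within the deleted exons is not given in the sources used here, and tumour cells contribute RNA in all groups, so Tnfrsf1a does not check the host labels.

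Over both treatments, 14 of the 38 antiviral genes were lower in TNFR KO than in WT hosts and 2 were higher. The lower ones included all 3 IFIT genes, 3 of 4 tested nucleic acid sensors, Herc6, Oasl2, the pair Parp9 and Dtx3l, the pair Rsad2 and Cmpk2, Sp100 and Trim21, at 1.52-fold (Trim21) to 3.51-fold (Herc6) below WT. Isg20 and Adar were higher, at 1.5-fold and 1.42-fold. A call here means a Benjamini-Hochberg adjusted p under 0.05 in the limma fit on the 4 pool means. Many genes of the whole array passed it: 18.9% of all tested genes were lower and 12.0% higher, against 36.8% and 5.26% of the antiviral genes. The median difference of the 38 was -0.29, with 28 below 0, against 0.09 over all tested genes. With arrays centred on their medians the antiviral split was 14 lower and 0 higher, and after quantile normalization it was 9 and 2. Over all tested genes, lower ones were 61.1% of the calls, and 80.6% after centring. In whole tumours, fewer cells of a type that makes an RNA and less RNA per cell cannot be told apart.

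These calls have 1 pool per group behind them, and the error of the fit is the disagreement of the 2 radiation effects, not a spread between animals. For all 14 lower genes, the 4 TNFR KO arrays read below the 4 WT arrays. That held for 15 of the 38 antiviral genes and for 21.7% of all tested genes. The count fell to 10 called genes without replicate 1 of the WT irradiated or of the WT untreated arrays and stood at 11 to 16 without any other array, and Cmpk2, Dtx3l, Eif2ak2, Herc6, Ifih1, Ifit1, Ifit2 and Parp9 were called whichever array was left out. So was Sp100, but both of its TNFR KO pool means lay below the filter and it was tested only through its WT signal. Zbp1 missed the threshold without replicate 1 of the WT untreated arrays (limma adjusted p = 0.0547). Oasl2, Rsad2, Trim21 and Ifit3 missed it without 3, 3, 3 and 5 of the 8 arrays, at adjusted p up to 0.103, 0.0981, 0.0675 and 0.1. The calls of Isg20 and Adar were lost without 6 and 7 of the 8 arrays, at adjusted p up to 0.0974 and 0.0777, and both were lost with arrays centred on their medians. With no filter on dim probe sets, limma called 0 of all tested genes for host, the antiviral genes included.

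**Figure D1:**
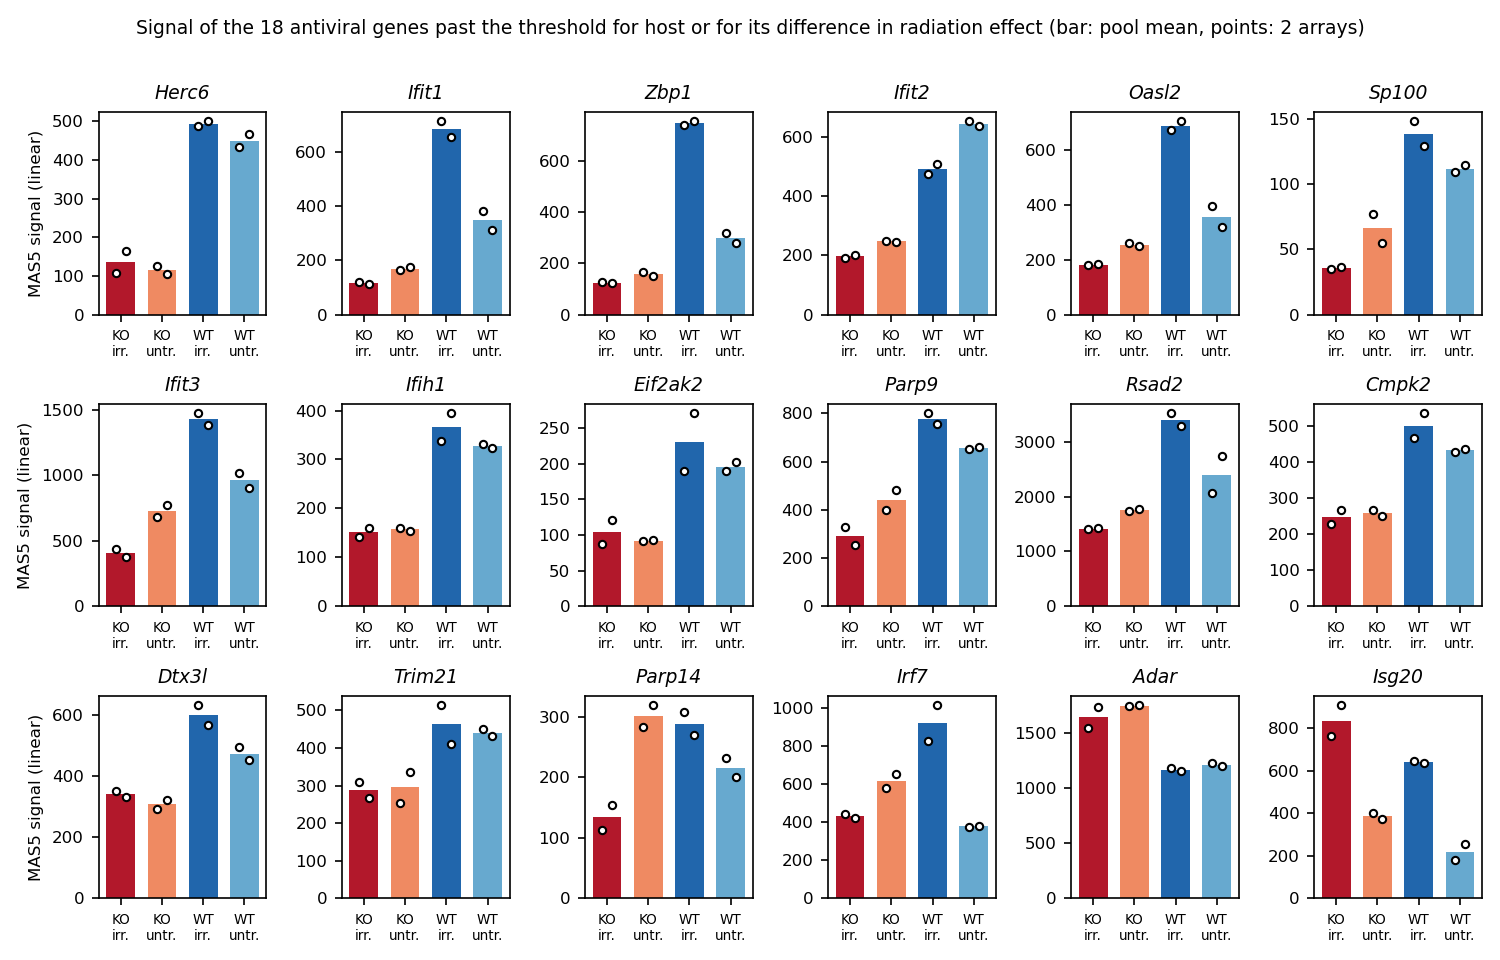
MAS5 signal (linear scale, from 0) of the 18 antiviral genes past the threshold for host or for the difference between the radiation effects, in the irradiated and untreated TNFR KO (KO) and the irradiated and untreated WT pools. Bars are pool means and points the 2 arrays. The 14 lower genes have all 4 KO arrays below all 4 WT arrays, Irf7 and Parp14 are lower in KO only among irradiated pools, and Adar and Isg20 have higher KO than WT bars within each treatment.

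Of the 4 transcription factors, Irf7 alone passed the threshold for a host difference that varied with treatment. It read 446 and 423 in the irradiated and 583 and 653 in the untreated TNFR KO pool, against 825 and 1016 in the irradiated and 374 and 382 in the untreated WT pool. The irradiated WT arrays were the highest and the untreated WT arrays the lowest, with no overlap between pools. Irf7 was therefore 2.07-fold lower in irradiated TNFR KO tumours than in irradiated WT tumours (-1.05 ± 0.11, limma adjusted p = 0.000704), while the untreated pools differed by 0.68 ± 0.11 in the other direction, under the 2-fold limit set for pairs of pools.

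Irf9, the DNA-binding subunit of the interferon complex, read 1018 and 1075 in the irradiated and 867 and 922 in the untreated TNFR KO pool, against 819.8 and 828 in the irradiated and 726 and 704 in the untreated WT pool. Both TNFR KO pools lay above their WT counterparts without overlap, by 0.33 over both treatments, which did not pass the test (limma adjusted p = 0.142). Stat2, its partner, read 174 and 154 in the irradiated and 147 and 229 in the untreated TNFR KO pool, against 163 and 228 in the irradiated and 184 and 192 in the untreated WT pool, and the hosts overlapped within each treatment. Irf1, which also serves interferon-gamma, read 1097 and 1116 in the irradiated and 1349.6 and 1386 in the untreated TNFR KO pool, against 1275 and 1372 in the irradiated and 1122 and 1114 in the untreated WT pool. Its irradiated TNFR KO arrays were slightly below the irradiated WT arrays and its untreated TNFR KO arrays above the untreated WT arrays, by -0.25 and 0.29, and its 2 radiation effects differed by -0.54 ± 0.09 (adjusted p = 0.0216), under 2-fold. The host differences over both treatments were 0.33 ± 0.16 for Irf9, 0.02 ± 0.18 for Irf1, -0.13 ± 0.16 for Stat2 and -0.18 ± 0.31 for Irf7, none past the test.

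Among sensors, Ifih1 (MDA5), which binds long double-stranded RNA, and Eif2ak2 (PKR), a kinase that halts translation on binding such RNA, were lower in TNFR KO tumours to about the same extent with and without radiation. Ifih1 read 143 and 161 in the irradiated and 161 and 155 in the untreated TNFR KO pool, against 338 and 394 in the irradiated and 332 and 323 in the untreated WT pool. Its differences of -1.18 among irradiated and -0.98 among untreated pools differed by -0.20 (95% interval -0.53 to 0.12), and over both treatments it was 2.12-fold lower (-1.08 ± 0.16, limma adjusted p = 0.000985). Eif2ak2 read 88.1 and 120.5 in the irradiated and 91.3 and 92.5 in the untreated TNFR KO pool, against 190.0 and 270.4 in the irradiated and 189 and 202 in the untreated WT pool, a difference of -0.999 ± 0.16 (adjusted p = 0.0014). Its other probe sets above the filter were at -1.50 and -0.96.

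Zbp1, a sensor of Z-form nucleic acid that can trigger necroptosis, combined a host difference with a treatment difference. It read 126 and 125 in the irradiated and 167 and 152 in the untreated TNFR KO pool, against 742 and 757 in the irradiated and 319.9 and 280.0 in the untreated WT pool. Its TNFR KO arrays stayed within a narrow low range, while its irradiated WT arrays were more than 2-fold above its untreated WT arrays. The host difference was 5.42-fold among irradiated pools (-2.44 ± 0.08, adjusted p = 5.62e-05), and 3.12-fold over both treatments (-1.64 ± 0.29, adjusted p = 0.00244). Dhx58 (LGP2), a relative of Ifih1 that tunes its activity, averaged 289 (TNFR KO irradiated), 331 (TNFR KO untreated), 395 (WT irradiated) and 292 (WT untreated), and its host difference of -0.13 did not pass the test.

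All 3 IFIT genes, whose proteins bind viral RNA and block its translation, were lower in TNFR KO tumours, but they differed in how radiation entered. Ifit1 read 120.5 and 112 in the irradiated and 163 and 175 in the untreated TNFR KO pool, against 713 and 657 in the irradiated and 384 and 312 in the untreated WT pool. The host difference in Ifit1 was 5.29-fold among irradiated pools and 1.96-fold among untreated pools, with -1.69 ± 0.27 over both (limma adjusted p = 0.00145). Ifit3, which like Ifit1 holds 2 ISRE cores upstream of its start, read 442 and 376 in the irradiated and 682 and 775 in the untreated TNFR KO pool, against 1474 and 1386 in the irradiated and 1022 and 906 in the untreated WT pool. Its irradiated TNFR KO arrays were the lowest and its irradiated WT arrays the highest, 3.41-fold apart, and over both treatments the difference was -1.08 ± 0.27 (adjusted p = 0.0119). Ifit2 read 192 and 202 in the irradiated and 249 and 246 in the untreated TNFR KO pool, against 477 and 509 in the irradiated and 654 and 638 in the untreated WT pool. It was 2.39-fold lower in TNFR KO among irradiated and 2.51-fold lower among untreated pools, and it alone of the 3 read lower in the irradiated than in the untreated WT pool (-0.38). Its host difference over both treatments was -1.29 ± 0.16 (adjusted p = 0.000393). Ifit2 and Ifit3 are neighbours with no gene between them in the RefSeq annotation, and their differences among untreated pools were -1.33 ± 0.06 and -0.40 ± 0.11.

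Of the oligoadenylate synthetase family, whose products activate the nuclease RNase L, only Oasl2 of 4 tested genes passed a test for host. Oasl2, a like protein of this family, read 181 and 182 in the irradiated and 258 and 249.7 in the untreated TNFR KO pool, against 673 and 702 in the irradiated and 395 and 317 in the untreated WT pool. The irradiated WT arrays stood apart from all others, and TNFR KO was 3.56-fold lower among irradiated and 1.37-fold lower among untreated pools (-1.14 ± 0.27 over both, limma adjusted p = 0.00937). Its neighbour Oasl1 averaged 243 (TNFR KO irradiated), 203 (TNFR KO untreated), 249 (WT irradiated) and 178 (WT untreated), with a host difference of 0.08. Oas1a averaged 3926 (TNFR KO irradiated), 3489.5 (TNFR KO untreated), 4433 (WT irradiated) and 2679.5 (WT untreated), and Oas2 189 (TNFR KO irradiated), 181 (TNFR KO untreated), 238 (WT irradiated) and 163 (WT untreated). The untreated WT pool was the lowest for these 3 genes. Oas3 was too dim to test.

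In the ubiquitin and ISG15 system, Herc6, the mouse enzyme that attaches Isg15 to proteins, had the largest host difference over both treatments among the 38 genes. It read 106 and 165 in the irradiated and 124 and 104 in the untreated TNFR KO pool, against 488 and 499 in the irradiated and 434 and 466 in the untreated WT pool, 3.42-fold lower in TNFR KO among irradiated and 3.59-fold lower among untreated pools (-1.81 ± 0.16 over both, adjusted p = 0.000238). Radiation left the TNFR KO and the WT arrays of Herc6 0.20 and 0.13 from their untreated counterparts, neither past the test, and the 2 effects differed by 0.07 (95% interval -0.57 to 0.71). Its 3 other probe sets were also lower, at -1.37, -1.12 and -0.50. Trim21, a cytosolic antibody receptor and ubiquitin ligase, read 309 and 268 in the irradiated and 254 and 336 in the untreated TNFR KO pool, against 514 and 412 in the irradiated and 449.7 and 433 in the untreated WT pool, a 1.52-fold difference (-0.61 ± 0.16, adjusted p = 0.0169). Usp18, which removes Isg15 and restrains the interferon receptor, averaged 1128 (TNFR KO irradiated), 1166 (TNFR KO untreated), 1784 (WT irradiated) and 1099 (WT untreated), and Trim25 1363 (TNFR KO irradiated), 1781 (TNFR KO untreated), 1718 (WT irradiated) and 1373 (WT untreated). Neither passed the host test, and 1 other probe set of Trim25 gave 0.73 where the one used gave 0.02.

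The 3 genes that lie side by side in the RefSeq annotation, Parp9, Dtx3l and Parp14, behaved differently. Dtx3l, a ubiquitin ligase that works in a complex with Parp9, read 350.5 and 332 in the irradiated and 293 and 322 in the untreated TNFR KO pool, against 630.4 and 564 in the irradiated and 494 and 451 in the untreated WT pool, 1.61-fold lower in TNFR KO (-0.69 ± 0.16, limma adjusted p = 0.0102). The other probe set of Dtx3l, also above the filter, gave -0.32. Parp9 read 330.2 and 254 in the irradiated and 398 and 482 in the untreated TNFR KO pool, against 799.8 and 757 in the irradiated and 652 and 659 in the untreated WT pool, 1.96-fold lower (-0.97 ± 0.20, adjusted p = 0.00559). Parp14, an ADP-ribosyltransferase, read 113 and 155 in the irradiated and 283 and 319.5 in the untreated TNFR KO pool, against 309 and 269.9 in the irradiated and 232 and 201 in the untreated WT pool. For Parp14 the irradiated TNFR KO arrays were the low ones, and the untreated TNFR KO arrays overlapped the irradiated WT arrays. It was 2.05-fold lower in TNFR KO among irradiated pools (-1.04 ± 0.16, adjusted p = 0.00242) and 0.45 from WT among untreated pools. Parp12, elsewhere in the genome, averaged 2353 (TNFR KO irradiated), 2377 (TNFR KO untreated), 2710.0 (WT irradiated) and 2446 (WT untreated), with a host difference of -0.12.

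Rsad2 (viperin), which makes an antiviral nucleotide that ends RNA chains, and Cmpk2, the nucleotide kinase next to it, were both lower, each with a difference of -0.84. Rsad2 read 1410.4 and 1427 in the irradiated and 1736 and 1776 in the untreated TNFR KO pool, against 3515 and 3291 in the irradiated and 2069.5 and 2733 in the untreated WT pool (-0.84 ± 0.20, limma adjusted p = 0.0111). Cmpk2 read 229 and 267 in the irradiated and 268 and 250.4 in the untreated TNFR KO pool, against 467 and 534 in the irradiated and 428 and 436 in the untreated WT pool (-0.84 ± 0.17, adjusted p = 0.00415), and its second probe set gave -0.14. Sp100, a component of nuclear bodies that silence viral genomes, was dim, and read 35.1 and 36.1 in the irradiated and 77.2 and 54.7 in the untreated TNFR KO pool, against 148 and 129 in the irradiated and 109 and 114 in the untreated WT pool (-1.12 ± 0.21, adjusted p = 0.00356). Its TNFR KO pools averaged 35.6 and 66.0, below the filter of 68.8, and it passed that filter through its WT pools alone, so its call adds no support to the count of lower genes. Pml, the organiser of the same bodies, went the other way, at 1361 (TNFR KO irradiated), 889.9 (TNFR KO untreated), 932 (WT irradiated) and 689 (WT untreated), a difference of 0.45 that did not pass the test (adjusted p = 0.0587). Samhd1, which breaks down nucleotides, was -0.46 from WT (adjusted p = 0.0554), and 1 of its other probe sets gave 0.60.

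The 2 genes that were higher in TNFR KO tumours both encode enzymes that act on RNA. Isg20, an exonuclease, read 764 and 908 in the irradiated and 403 and 372 in the untreated TNFR KO pool, against 646 and 638 in the irradiated and 178 and 257 in the untreated WT pool. The irradiated arrays exceeded the untreated arrays in both hosts, and TNFR KO exceeded WT within each treatment (0.59 ± 0.17, limma adjusted p = 0.0274). Adar, which edits adenosine in double-stranded RNA and so keeps self RNA from sensors such as Ifih1, read 1541 and 1738 in the irradiated and 1744 and 1750.3 in the untreated TNFR KO pool, against 1178 and 1150.2 in the irradiated and 1225 and 1196 in the untreated WT pool. The TNFR KO arrays were all above the WT arrays (0.51 ± 0.16, adjusted p = 0.0361), and its other probe sets gave 0.60 and 1.32.

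The host difference was taken apart by treatment on the 8 arrays, where a call needs an adjusted p under 0.05 and a 2-fold difference, and the error is that of duplicate arrays only. Among irradiated tumours 13 of 38 antiviral genes were lower in TNFR KO (34.2%), against 7.43% of all tested genes. Zbp1 (-2.44) and Ifit1 (-2.40) led, followed by Oasl2 (-1.83), Herc6 (-1.78), Ifit3 (-1.77) and Sp100 (-1.58), and then by Parp9, Ifit2, Rsad2, Ifih1, Irf7, Parp14 and Eif2ak2, at -1.38 to -1.03. Sp100 passed the filter through its WT pools alone, so its call adds no support to this count. Among untreated tumours 2 of 38 were lower (5.26%), Herc6 and Ifit2, against 6.25% of all tested genes, a share near that of the whole array. The median difference was -0.57 among irradiated and -0.04 among untreated pools, against 0.06 and 0.08 over all tested genes. Both TNFR KO arrays lay below both WT arrays for 30 of 38 antiviral genes among irradiated tumours, against 35.5% of all tested genes, and for 16 of 38 among untreated tumours, against 34.1%. Centring arrays on their medians moved the untreated differences of all genes by -0.20 and gave 6 lower antiviral genes there, and it gave 12 among irradiated tumours. Of all calls among untreated tumours, 75.2% were lower, and 89.7% after centring. Without replicate 2 of the WT untreated arrays, 5 antiviral genes passed among untreated tumours.

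**Figure D2:**
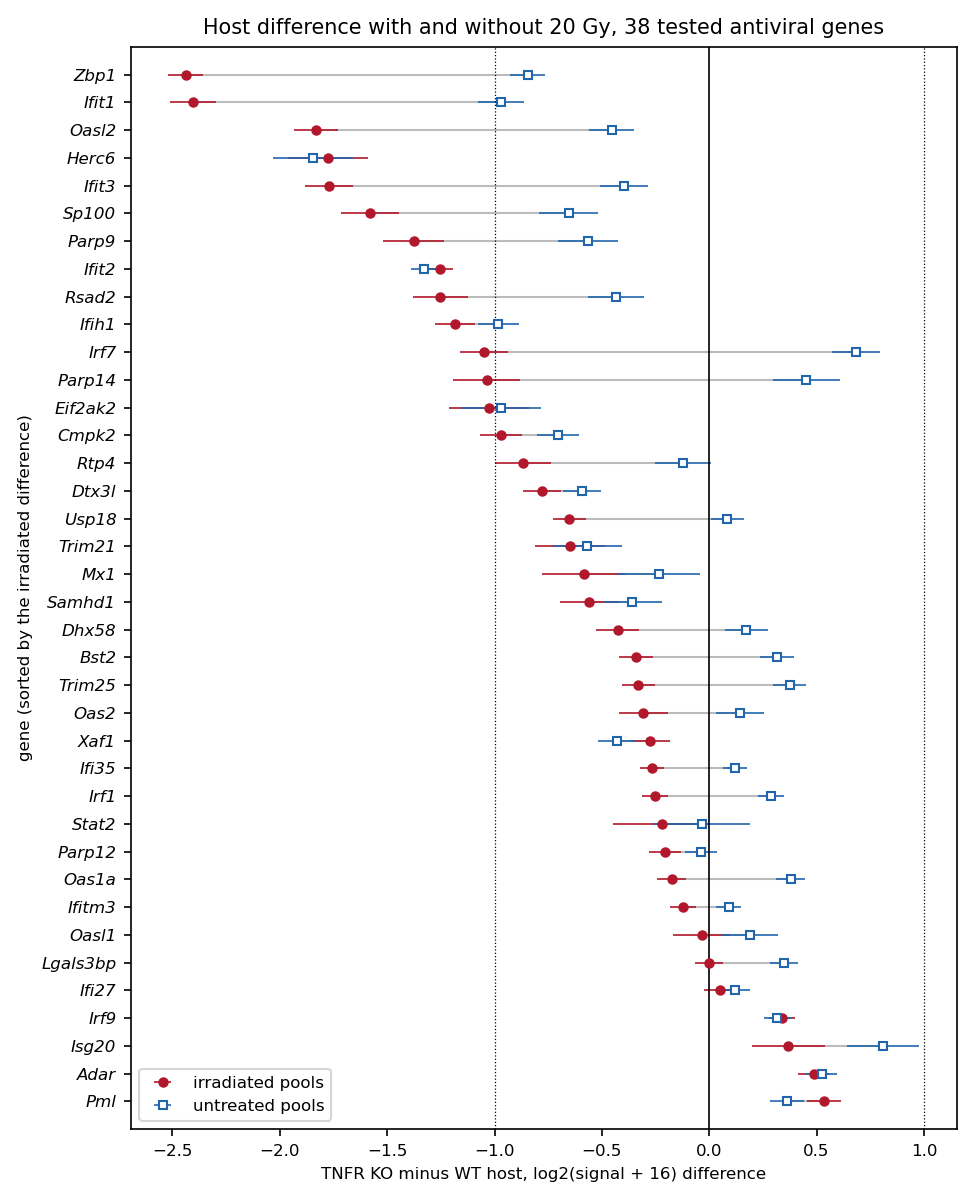
TNFR KO minus WT difference in log2(signal + 16) for each of the 38 tested antiviral genes, among irradiated pools (filled circles) and untreated pools (open squares), with the limma standard error of duplicate arrays as bars and dotted lines at 2-fold. Of the irradiated differences, 33 lie below 0, and of the untreated ones 20, and Herc6 and Ifit2 have both symbols left of the 2-fold line.

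Few antiviral genes passed the test for radiation by itself at 5 h. Over both hosts Isg20 was the 1 antiviral gene of 38 that was higher (2.63%), at 2.45-fold (SE 0.17 in log2, limma adjusted p = 0.00381), against 1.55% of all tested genes, and this call was lost without 6 of the 8 arrays (adjusted p up to 0.135), after quantile normalization and with no filter. In WT hosts Isg20 (1.52), Zbp1 (1.28) and Irf7 (1.24) were higher after irradiation, 3 of 38 (7.89%) against 2.25% of all tested genes, and 5 passed without replicate 1 of the WT untreated arrays. With centred arrays 2 passed there, and after quantile normalization 4. In TNFR KO hosts Isg20 was higher (1.07) and Parp14 lower (-1.09), 1 of 38 each (2.63%), against 0.881% and 0.485% of all tested genes. The Parp14 call there was lost without replicate 1 of the TNFR KO irradiated arrays and the Isg20 call without replicate 2 of them or replicate 2 of the TNFR KO untreated arrays. Across the 38 genes the change with radiation was above 0 for 36 in WT hosts, with a median of 0.36, and for 15 in TNFR KO hosts, with a median of -0.04, against -0.02 over all tested genes in each host. Centring moved the change of all genes in WT hosts by -0.26, and with it 25 of the 38 were above 0 there, at a median of 0.10 against -0.28 over all tested genes. The hybridisation controls also read higher after irradiation, 1.27-fold in WT and 1.12-fold in TNFR KO hosts. Their part in these changes was not tested. Lower genes were 18.5% of all calls for radiation over both hosts and 8.27% in WT hosts, and 49.2% and 44.4% after centring. Several bright genes of the list were higher after irradiation in WT hosts, all under the 2-fold limit. Bst2 (1.8-fold), Ifi35 (1.62-fold) and Ifitm3 (1.41-fold) had limma adjusted p of 0.00212, 0.00135 and 0.00431. Oas1a was 1.65-fold higher there, and Ifi27 and Lgals3bp 1.24-fold each. Other probe sets of Ifi35, all dimmer, gave 0.53 and 0.73 where the one used gave 0.69. Ifitm3, which stops viruses fusing inside endosomes, averaged 24888 (TNFR KO irradiated), 20370.0 (TNFR KO untreated), 27070.0 (WT irradiated) and 19138 (WT untreated). Ifi35 averaged 9774 (TNFR KO irradiated), 7873 (TNFR KO untreated), 11750.0 (WT irradiated) and 7254 (WT untreated), and Bst2 (tetherin), which holds budding virions at the cell surface, 3777 (TNFR KO irradiated), 3307 (TNFR KO untreated), 4783 (WT irradiated) and 2657 (WT untreated).

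The 2 radiation effects themselves were compared by an interaction term, with duplicate arrays as the error. It uses the same 4 pools as the host comparisons above, so their calls are not separate evidence. It was below 0 by at least 2-fold, at an adjusted p under 0.05, for Irf7, Zbp1, Parp14, Ifit1, Oasl2 and Ifit3, which is 6 of 38 (15.8%), against 2.05% of all tested genes. In WT hosts these genes changed with radiation by 0.40 (Parp14) to 1.28 (Zbp1), and in TNFR KO hosts by -1.09 (Parp14) to -0.31 (Zbp1), so that each had opposite signs in the 2 hosts. The difference was -1.73 ± 0.16 for Irf7 (limma adjusted p = 0.00517), -1.59 ± 0.12 for Zbp1 (0.00267) and -1.43 ± 0.15 for Ifit1 (0.00809). For Oasl2, Ifit3 and Parp14 it was -1.38 ± 0.15, -1.37 ± 0.16 and -1.49 ± 0.22, with adjusted p of 0.00809, 0.0103 and 0.0186. Parp14 kept an adjusted p under 0.05 without either TNFR KO irradiated array and lost it without any one of the other 6 (0.0531 to 0.0698), while the other 5 genes kept it whichever array was left out. With the mean of its probe sets, Zbp1 had a difference of -1.61 and an adjusted p of 0.0848. Sp100 (-0.93) and Rsad2 (-0.82) had adjusted p of 0.0408 and 0.0468 and fell short of 2-fold. So did Usp18 (-0.74), Trim25 (-0.70), Bst2 (-0.65), Oas1a (-0.55), Irf1 (-0.54) and Ifi35 (-0.38), at limma adjusted p of 0.0185 to 0.0401. The change was above 0 in WT and below 0 in TNFR KO hosts for 21 of the 38, against 18.3% of all tested genes. The median over the 38 genes was -0.37, against -0.01 over all tested genes. After centring both moved by about as much, to -0.14 and 0.22, and 6 antiviral genes passed. Of all calls, 92.8% were below 0, and 62.0% after centring.

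**Figure D3:**
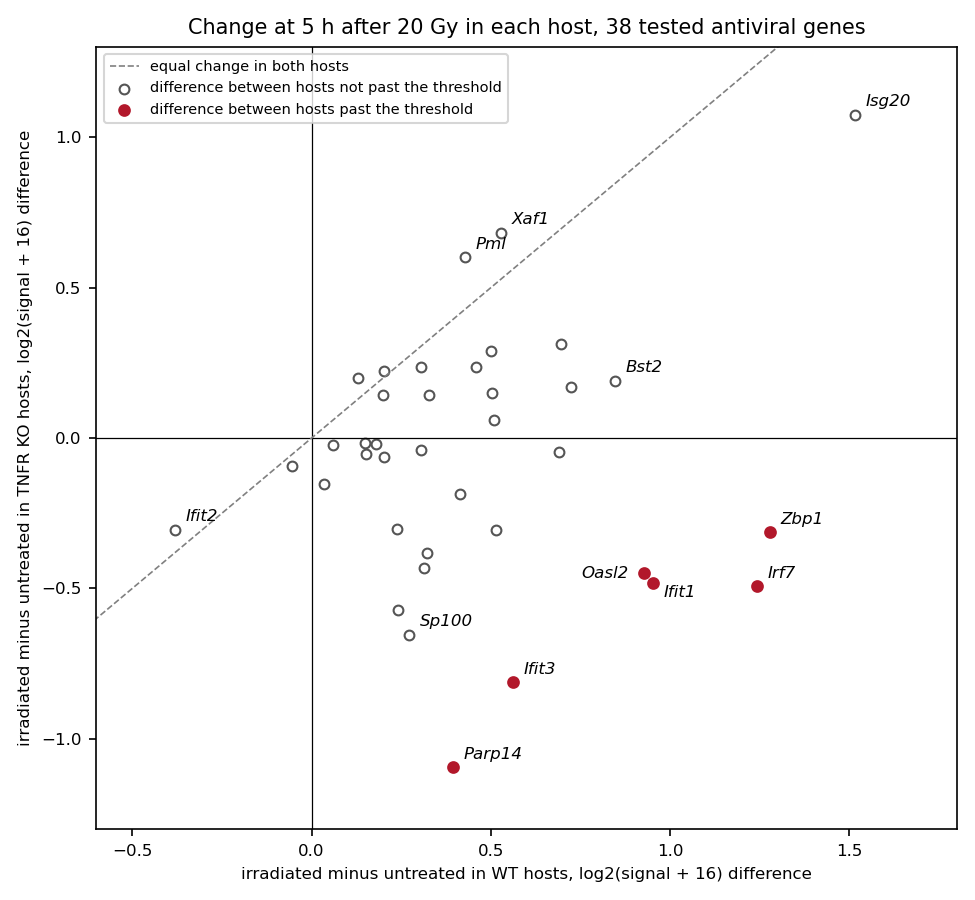
Change at 5 h after 20 Gy, irradiated minus untreated in log2(signal + 16), in TNFR KO hosts (vertical) and in WT hosts (horizontal) for the 38 tested antiviral genes. Filled points are the 6 genes whose 2 changes differ past the threshold, all in the lower right, below 0 in TNFR KO and above 0 in WT hosts. Isg20 is above 0 in both, and the dashed line marks equal change.

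The irradiated WT pool had the highest mean signal for 28 of 38 antiviral genes (73.7%), against 17.8% of all tested genes, and the irradiated TNFR KO pool the lowest for 19 of 38, against 28.0%. The untreated WT pool was the lowest for 13 (34.2%), against 31.1% of all tested genes, and the highest for 1, Ifit2 (2.63%), against 26.3%. After quantile normalization the irradiated WT pool was highest for 26 genes, and with centred arrays for 19 of 38, against 8.28% of all tested genes. With centred arrays the untreated WT pool was the lowest for 5 of 38, against 11.6% of all tested genes, and the highest for 10, against 46.0%.

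**Figure D4:**
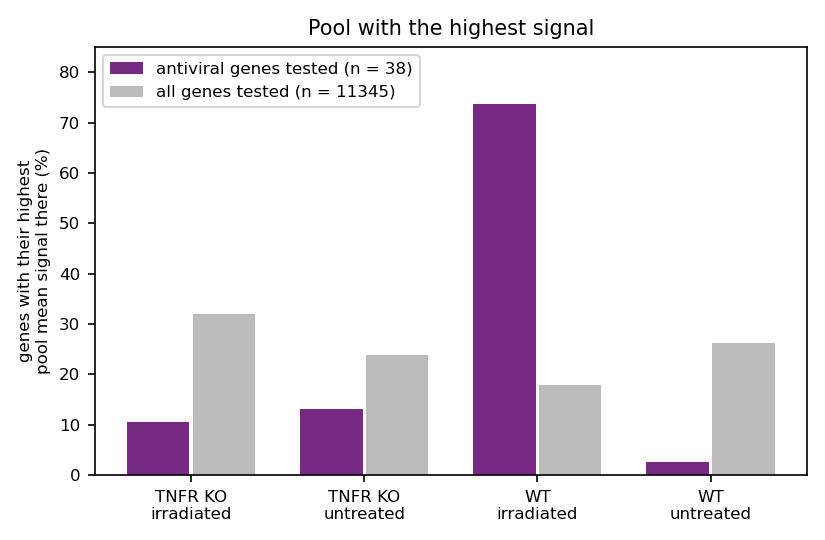
Share of genes (%) whose highest pool mean signal is in each of the 4 pools, for the 38 tested antiviral genes (dark bars) and all 11345 tested genes (grey bars). The irradiated WT pool holds 73.7% of the antiviral genes against 17.8% of all.

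None of the remaining listed genes was called in any comparison. Mx1, a GTPase that traps influenza virus components, averaged 71.2 (TNFR KO irradiated), 63.95 (TNFR KO untreated), 115 (WT irradiated) and 76.5 (WT untreated), close to the filter, with a host difference of -0.41. Rtp4 averaged 1136 (TNFR KO irradiated), 1549 (TNFR KO untreated), 2084 (WT irradiated) and 1675 (WT untreated), Xaf1 1370.5 (TNFR KO irradiated), 847 (TNFR KO untreated), 1664 (WT irradiated) and 1148 (WT untreated), Lgals3bp 7877 (TNFR KO irradiated), 8102 (TNFR KO untreated), 7878 (WT irradiated) and 6370.4 (WT untreated) and Ifi27 11663 (TNFR KO irradiated), 9899 (TNFR KO untreated), 11281 (WT irradiated) and 9116 (WT untreated). Their host differences were -0.49, -0.35, 0.17 and 0.08, none past the test. Of the 3 dim genes, Ddx60 averaged 31.2 (TNFR KO irradiated), 17.6 (TNFR KO untreated), 80.7 (WT irradiated) and 34.5 (WT untreated), Oas3 20.4 (TNFR KO irradiated), 22.8 (TNFR KO untreated), 58.5 (WT irradiated) and 20.9 (WT untreated) and Mx2 20.0 (TNFR KO irradiated), 37.5 (TNFR KO untreated), 92.0 (WT irradiated) and 54.1 (WT untreated). Each read highest in the irradiated WT pool. Mx2 and Ddx60 were 2.99-fold and 2.38-fold lower in TNFR KO among irradiated pools, and none of the 3 was tested. Where other probe sets of a gene passed the filter, 20 of 25 had the same sign for host as the one used and 5 the opposite sign.

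Upstream of the antiviral genes, none of the 8 interferon genes with a probe set (of 12 listed) was bright enough to test. Ifnb1 averaged 57.1 (TNFR KO irradiated), 35.8 (TNFR KO untreated), 82.2 (WT irradiated) and 36.2 (WT untreated), and Ifng 17.1 (TNFR KO irradiated), 27.8 (TNFR KO untreated), 13.2 (WT irradiated) and 5.20 (WT untreated). Of 10 tested genes for interferon receptors and their kinases, 2 were lower in TNFR KO hosts over both treatments (against 18.9% of all tested genes), the kinases Jak1 (-0.77 ± 0.20, limma adjusted p = 0.0151) and Jak2 (-0.59 ± 0.16, 0.0206), and 2 were higher (against 12.0%), the receptor chains Ifnlr1 (1.01 ± 0.20, 0.00361) and Ifngr2 (0.79 ± 0.16, 0.00473). Ifnar1, a chain of the type I interferon receptor, averaged 945 (TNFR KO irradiated), 1395 (TNFR KO untreated), 773 (WT irradiated) and 1142 (WT untreated). Its partner Ifnar2 averaged 1186 (TNFR KO irradiated), 1378 (TNFR KO untreated), 1725 (WT irradiated) and 1420.2 (WT untreated), and neither passed the test. Of 13 tested genes of nucleic acid sensing and interferon induction, the kinase Tbk1 (-0.67) and the receptor Tlr3 (-0.53) were lower (against 18.9% of all tested genes). The adaptor Mavs (0.60) was higher (against 12.0%). Of 9 tested negative regulators, which include Usp18, Trim24 (-1.13) and the phosphatase Ptpn2 (-0.74) were lower (against 18.9%). Host counts this small in lists of this size are near the shares of all tested genes. Of the same 9, Socs3 was higher with radiation over both hosts (0.98), against 1.55% of all tested genes, a count that rests on 1 gene.

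Genes led mainly by interferon-gamma were measured beside the antiviral list, with no gene in common. Of 13 tested, 10 were lower in TNFR KO hosts over both treatments, against 18.9% of all tested genes. Cxcl10, a chemokine, was higher (0.54), against 12.0%. The median of the 13 was -1.08, against 0.09 over all tested genes. The largest differences were in Iigp1 (-2.23 ± 0.22) and Gbp2 (-2.02 ± 0.30), GTPases that attack vacuoles of microbes, in the chemokine Cxcl9 (-1.72 ± 0.40) and in Gbp6 (-1.71 ± 0.31), with limma adjusted p of 0.000245, 0.00092, 0.00915 and 0.00249. The radiation effects of Cxcl9, Gbp6 and Gbp2 differed between hosts by -2.37, -1.69 and -1.65, past the same threshold as the 6 antiviral genes. Of all tested genes, 2.05% did so. Tap1, a peptide transporter, was higher with radiation in both hosts (1.12 in TNFR KO and 1.45 in WT).

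Markers of immune and other cells moved with these comparisons. The summed signal of 6 neutrophil markers was 1167 to 1201 on the irradiated and 1013 to 1014 on the untreated TNFR KO arrays, against 23244 to 24083 on the irradiated and 3630.0 to 4033 on the untreated WT arrays. Most of the sum was S100a8 and S100a9, at 13868 and 9222 in the irradiated WT pool. In the irradiated TNFR KO pool they read 596 and 318. All 4 tested neutrophil markers were lower in TNFR KO over both treatments (against 18.9% of all tested genes), led by S100a9 (-3.48) and S100a8 (-3.29). The differences in Csf3r (-0.71) and Mmp8 (-0.55) were much smaller. With radiation in WT hosts, 3 of the 4 were higher, against 2.25% of all tested genes. The summed signal of 10 macrophage markers was 6098 to 6354 on the irradiated and 9422 to 9760.0 on the untreated TNFR KO arrays, against 9200.2 to 9631 on the irradiated and 4746 to 4819.9 on the untreated WT arrays, so that the sum was higher in TNFR KO without radiation and lower with it. Among irradiated pools 1 of 9 tested markers was called lower (against 7.43% of all tested genes), Cd14 (532 in the TNFR KO and 2302 in the WT pool). The median host difference of the 9 there was -0.52, with Mrc1 at -0.98, Itgam at -0.56 and Lyz2 at -0.46, all under 2-fold. Nearest to 0 were Csf1r, at 1198 in the TNFR KO and 1251 in the WT pool, and Adgre1, at 448 and 441. Of these 9 markers, 7 had lower radiation effects in TNFR KO than in WT hosts (median -1.37), against 2.05% of all tested genes. For 6 markers of plasmacytoid dendritic cells, which make much type I interferon, the sum was 4459.9 to 4571 on the irradiated and 4227 to 4488 on the untreated TNFR KO arrays, against 5591 to 5932 on the irradiated and 3379 to 3633 on the untreated WT arrays, but 1 of the 6 is Bst2 itself. Bst2 made up most of each sum, at 3777 and 3307 in the irradiated and untreated TNFR KO pools and 4783 and 2657 in the irradiated and untreated WT pools. The defining marker Siglech averaged 44.5 (TNFR KO irradiated), 62.0 (TNFR KO untreated), 71.2 (WT irradiated) and 35.0 (WT untreated). It was below the filter of 68.8 in all but the irradiated WT pool and was not tested. The sum of 9 T and NK cell markers was 526 to 705 on the irradiated and 529 to 588 on the untreated TNFR KO arrays, against 888 to 1046 on the irradiated and 559.5 to 612 on the untreated WT arrays. No marker of these lists was at 0, and of the neutrophil markers Cxcr2 and Camp, and of the T and NK cell markers 7, were below the filter. Among non-immune cells, 4 of 6 tested fibroblast markers were higher in TNFR KO over both treatments, against 12.0% of all tested genes. Another 1 was lower, against 18.9%. The radiation effects of Col1a1, Col1a2, Col3a1 and Dcn differed between hosts (list median -1.16), against 2.05% of all tested genes. The summed signal of the 7 fibroblast markers was 9982 in the irradiated and 14990.0 in the untreated TNFR KO pool, against 7308 in the irradiated and 4771 in the untreated WT pool. Of the tested markers, 3 of 5 endothelial, 2 of 2 keratinocyte and 2 of 2 erythroid ones were higher in TNFR KO, against 12.0% of all tested genes. Skeletal muscle markers were lower for 4 of 4, against 18.9%. The 2 erythroid markers had higher radiation effects in TNFR KO than in WT hosts, as did 18 of all 11345 tested genes. Only 2 of 5 listed keratinocyte, 4 of 6 skeletal muscle and 2 of 4 erythroid markers were tested. Of the 7 melanocyte markers only Mitf, a transcription factor of that lineage, was lower (-0.89, limma adjusted p = 0.00317), against 18.9% of all tested genes. The part of these cells, of the spike-in and hybridisation control differences and of ribosomal RNA in the antiviral signals was not tested.

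The ISRE core was set beside the host difference as a description. Of 10 tested antiviral genes with a match in the promoter table, 6 were lower in TNFR KO over both treatments, and of 19 without a match, 6 were, with median differences of -0.73 and -0.12. Over all tested genes in the table, 23.4% of the 329 with a match and 18.4% of the 8909 without were lower. Herc6, Ifit2 and Oasl2 were among the lower genes with no match in this window, and Ifitm3 and Oas1a among those with a match that did not pass.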

How the data were processed

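Signal intensity was used as deposited, linear and not logged. Per the submitters' processing notes it came from MAS5. With 2% trimmed at each end, every one of the 8 arrays averaged 500, so the authors' values share 1 scaling target. Arrays have no read depth, and their number limits the precision. The members and lists were chosen with earlier results of these data known.

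The annotation gave a single gene to 34945 of 45101 probe sets, several to 932 and no gene to 9160, beside 64 controls. Each gene stood by its brightest single-gene probe set, and genes with a mean log2 of at least 6.41, the median of non-control probe sets (signal 68.8), were tested. All 41 listed genes with a probe set matched the RefSeq gene table by gene ID.

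limma 3.58.1 in R 4.3.3 was run on log2(signal + 16). An additive fit on the 4 pool means gave the host and radiation effects (1 residual and 9.52 prior degrees of freedom). A fit of all 8 arrays with a mean per group gave pairs of pools and the interaction (4 residual and 1.99 prior degrees of freedom), also requiring 2-fold. P-values of that second fit measure only the spread between technical duplicates. Tests were two-sided and adjusted over all 11345 genes by Benjamini-Hochberg. The fits were tested on simulated data. Figures used matplotlib 3.10.9 in Python 3.11.15.

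Replicate numbers did not pair the arrays: deviations correlated between pools at -0.032 to 0.052. Array values are printed for genes past the threshold for host, radiation or the interaction and for the 4 transcription factors. Of each pathway list, up to 4 called genes with the largest difference were to be named, and promoters of up to 6 genes with the largest host difference and a motif match, plus the smallest. Genes outside that rule were named after their values were seen. Alternatives were other normalizations, pseudocounts, filters, fold thresholds, probe set summaries and fits, and leaving out each array.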

Additional observations from a re-analysis of the deposited data

Results flagged for a closer look

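For 6 antiviral genes the radiation effect differed between hosts by an interaction test on the 8 arrays (limma, adjusted p under 0.05 and at least 2-fold). The effect in TNFR KO minus that in WT hosts was -1.73 for Irf7, -1.59 for Zbp1, -1.49 for Parp14, -1.43 for Ifit1, -1.38 for Oasl2 and -1.37 for Ifit3. The error of this test is that of duplicate arrays of 1 pool per group. The Parp14 call was lost without any one of 6 arrays. Macrophage and fibroblast markers and the neutrophil markers S100a8 and S100a9 also changed differently with radiation in the 2 hosts. The part of these markers' cells in these 6 differences was not tested.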

How the results depend on the processing

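Each group is 1 pool, so no value here covers differences between animals, and dim probe sets limit what the arrays can show. No gene called for host, for radiation over both hosts or for the interaction changed direction under any alternative run. For the pairs of pools, direction was not followed gene by gene. The small median differences of the 38 genes did: that among untreated pools (-0.04) became 0.12 with a filter at the 75th percentile and 0.08 without replicate 1 of the TNFR KO untreated arrays, and that for radiation in TNFR KO (-0.04) became 0.0012 after quantile normalization. The 16 calls for host became 0 with no filter and 9 with a filter at the 75th percentile, and 10 to 16 when any one array was left out. The 1 call for radiation over both hosts became 0 after quantile normalization and with no filter, 2 with a pseudocount of 64, 3 with the stricter filter, and 7 with limma-trend, and 0 to 1 when any one array was left out. In a fit of all 8 arrays as replicates, host had 22 calls and radiation 11, and with the replicate number as a replicate block in that fit 20 and 7. The replicate block left the counts of the other comparisons equal. All counts in this section are of antiviral genes alone. The looser fold thresholds below also let more of all tested genes pass, and all-gene shares under these alternatives are not given beside them. A larger count is therefore not a result about the antiviral genes. Among irradiated tumours the 13 calls became 4 with the stricter filter and 29 with no fold threshold, and 11 to 14 with any one array left out. Among untreated tumours the 2 calls became 6 with centred arrays, 5 without a pseudocount, 0 with the stricter filter, 4 with the mean of probe sets, 11 at 1.5-fold and 25 with no fold threshold, and 2 to 5 with any one array left out. The 2 calls for radiation in TNFR KO became 0 with a pseudocount of 64, 1 with the stricter filter or the mean of probe sets, 6 at 1.5-fold and 17 with no fold threshold, and 1 to 2 with any one array left out. The 3 calls for radiation in WT became 9 at 1.5-fold and 22 with no fold threshold, and 3 to 5 with any one array left out. The 6 interaction calls became 2 with the stricter filter, 11 at 1.5-fold and 14 with no fold threshold, and 5 to 6 with any one array left out. The stricter filter tests 22 of the 38 genes. The cause of the other changes was not tested.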
